A study of Mus musculus with 4 samples.

Results

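The 10 genes described here are Nqo1, Gclc, Gclm, Txnrd1, Srxn1, Slc7a11, Prdx1, Sqstm1, G6pdx and Gsr, antioxidant genes that are textbook targets of the transcription factor NRF2. They were taken by symbol from the 32285 genes of the matrices, and each symbol had 1 row. The study compared mouse tumours with and without nanoparticle treatment, and its title names multifunctional enzyme nanocapsules. Single-cell RNA was measured by the 10x Genomics 3′ method in 2 libraries labelled Control and 2 labelled Nanocapsule, all from C57Bl6 mice at 6-8 weeks of age, with tumour as the tissue and cancer cells as the cell type. The labels give no tumour line, enzyme, dose or time, and do not say which animals gave which library, so the p-values below measure the spread between these 4 libraries, which may be technical.

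NRF2 is held at low levels by KEAP1, an adaptor that feeds it to a ubiquitin ligase. Oxidants and electrophiles that modify KEAP1 let NRF2 accumulate, pair with a small MAF protein and bind antioxidant response elements, which the repressor BACH1 occupies at some of the same genes. Hmox1, the haem-degrading enzyme, is a target of both factors and also answers to haem, hypoxia and amino acid stress. Whether the 10 targets moved with Hmox1 in treated tumours and in single tumour cells was the question.

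Of 7044 called cells, 6233 were tumour-like, 2989 and 955 in Control 1 and 2 and 1388 and 901 in Nanocapsule 1 and 2. The melanocytic marker Dct stood at 3680 ± 102 CPM (counts per 1000000 unique molecular identifiers, UMIs; SD, n = 4 libraries) in them, so the cell type label held for most cells. It did not hold for 184 macrophage-like, 26 T cell-like and 9 endothelial-like cells, whose mean Dct lay between 21.0 and 93.4 CPM. A further 61 cells were led by collagen genes and 531 stayed unnamed. Both carried Dct near the tumour-like level, at 2773 ± 483 and 3242 ± 185 CPM, so the marker does not set them apart from tumour cells. Levels below are UMIs summed per library and scaled to CPM. Each transcript is tagged once at its 3′ end, so these levels do not grow with transcript length. Of called cells, pairs of libraries shared 0 to 13 barcodes, against 1.61 to 7.12 expected for random barcodes.

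Promoter sequence was available for 8 of the 10 genes in the RefSeq table (GRCm38.p6). The core of the antioxidant response element, TGACNNNGC on either strand, occurred in the 250 bases before the start site in 4 of their 10 promoter windows and in 10.2% of all 32851 windows. These were the windows of Gclm, Prdx1 and G6pdx and 1 of the 3 of Txnrd1. The Slc7a11 promoter held no match to it. It held 2 matches, on opposite strands, to the C/EBP-ATF response element TGATGNAAN, at which ATF4 binds and which occurred in 3.44% of windows. Srxn1, Sqstm1 and Nqo1 matched neither motif. This second motif was searched after the expression data had been seen. The stretches around the matches are shown for the genes with a match outside annotated exons, which leaves out G6pdx. The capitals mark the matches. The stretches lie at chr3:50443628-50443704 (minus strand), chr3:122245398-122245456, chr4:116685441-116685499 and chr10:82859089-82859147 (plus strand).
Slc7a11: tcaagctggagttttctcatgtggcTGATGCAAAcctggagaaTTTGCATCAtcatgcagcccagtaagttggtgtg
Gclm: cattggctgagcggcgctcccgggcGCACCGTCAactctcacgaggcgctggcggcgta
Prdx1: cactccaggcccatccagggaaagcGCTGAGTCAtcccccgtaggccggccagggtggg
Txnrd1: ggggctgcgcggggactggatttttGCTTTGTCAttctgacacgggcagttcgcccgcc
A match describes the letters and is not a measured binding site, and no match says only that these letters are not in this window.

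In tumour-like cells, mean Hmox1 was 2.37 times as high in the nanocapsule as in the control libraries, and no NRF2 target of the 10 passed the unpaired test. Below, the value of replicate 1 always precedes that of replicate 2. Hmox1 (GRCm38 chr8:75093621-75100589) stood at 64.0 and 60.8 CPM in the controls and at 142 and 153 CPM in the treated libraries. Both treated libraries lay far above both controls. The log2 fold was 1.24 ± 0.08 (SE; edgeR quasi-likelihood test, adjusted p = 0.0558), just short of the 0.05 threshold after Benjamini-Hochberg adjustment over 16058 genes. It passed in 10 of 14 alternative settings that did not choose cells by Hmox1, among them DESeq2 (adjusted p = 1.91e-31), and the log2 fold lay between 1.18 and 1.55 in all 14. The cluster led by interferon-induced genes held 10 and 8 control cells and 42 and 128 treated cells. Without it the log2 fold of Hmox1 was 1.33 (edgeR adjusted p = 0.0277) and still none of the 10 passed.

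By edgeR, 0 of the 10 NRF2 targets passed the threshold in tumour-like cells, against a background of 0.0% of all genes called higher and 0.0% called lower. By DESeq2, 0 of the 10 passed among 87 genes called. At an unadjusted p under 0.05 there were 2 of 10, against 7.19% of all genes. The median log2 fold of the 10 was 0.18, against 0.0015 over all genes tested. In 5 of the 10 genes both nanocapsule libraries lay above both controls, as in 19.2% of all genes, and in 2 both lay below, as in 18.6%.

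**Figure D1:**
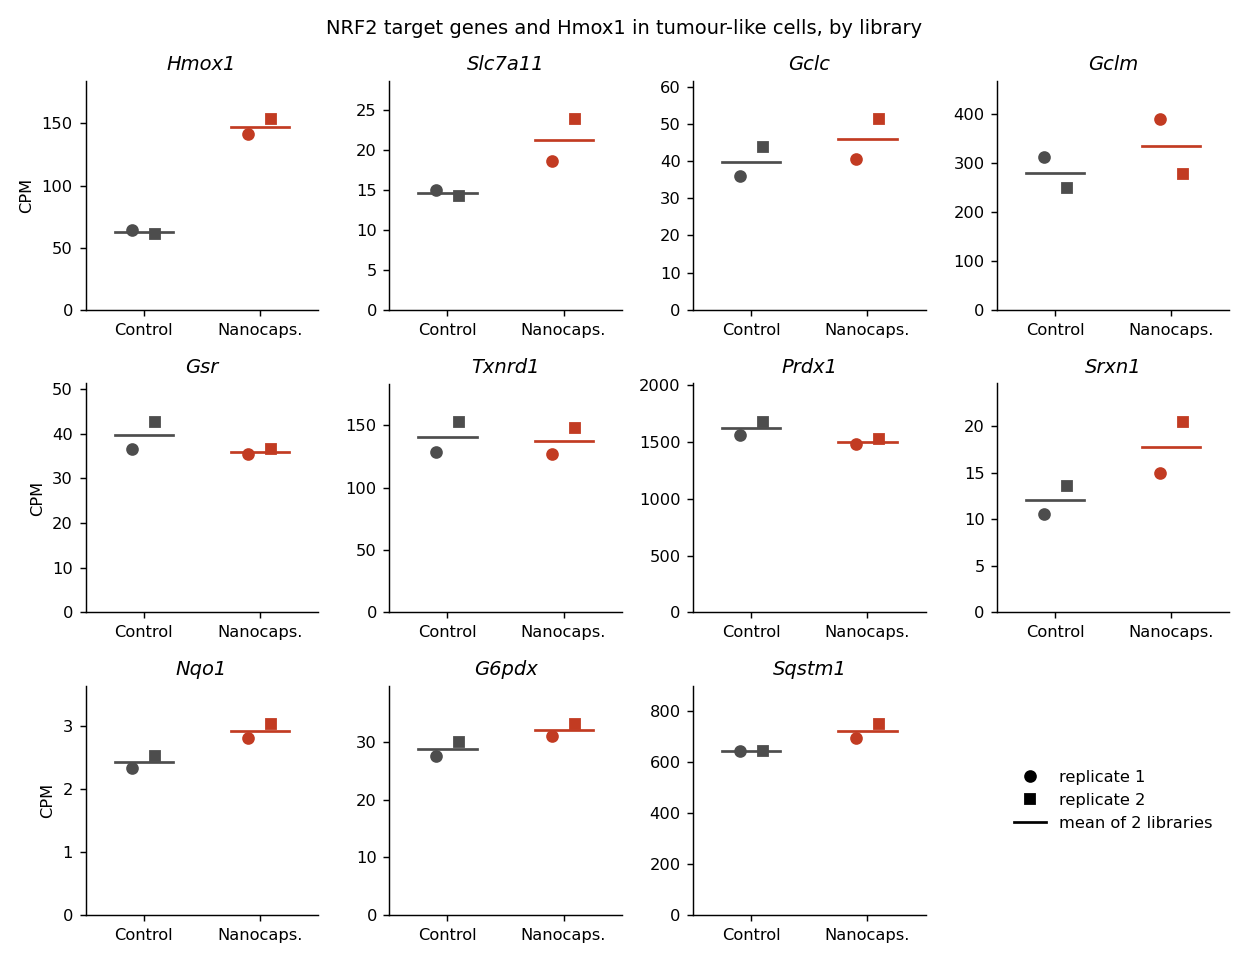
Level of Hmox1 and the 10 NRF2 target genes in tumour-like cells, in CPM on a linear axis from 0. Each point is 1 library (circle, replicate 1; square, replicate 2) and each line the mean of 2 libraries. Hmox1 shows the widest gap between groups, Slc7a11 and Srxn1 a smaller one, and the points of Gclc, Gclm and Txnrd1 overlap.

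The 2 genes below the unadjusted threshold were Slc7a11 and Srxn1. Slc7a11 (chr3:49892526-50443614), the cystine importer that feeds glutathione synthesis, was at 15.01 and 14.3 CPM in the controls and at 18.6 and 23.9 CPM in the treated libraries. The groups did not overlap, with a log2 fold of 0.53 ± 0.13 (SE; edgeR adjusted p = 0.686). Srxn1 (chr2:152105516-152111376), sulfiredoxin, which repairs overoxidised peroxiredoxins, was at 10.5 and 13.6 CPM in the controls and at 15.03 and 20.5 in the treated libraries. Control 2 and Nanocapsule 1 were close, and the log2 fold was 0.56 ± 0.19 (SE; edgeR adjusted p = 0.686). With same-numbered libraries taken as pairs, which the labels do not state, Srxn1 passed (0.55, edgeR adjusted p = 0.0119), among 228 genes called. Without Nanocapsule 2 the log2 folds of Slc7a11 and Srxn1 were 0.34 and 0.31, more than 1.5 times smaller.

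Of the other glutathione genes, Gclc and Gclm overlapped between groups and Gsr was slightly lower. Gclc, the catalytic subunit of the enzyme that limits glutathione synthesis, had 35.9 and 43.8 CPM in the controls and 40.5 and 51.2 CPM after treatment. Gclm, its modifier subunit, had 313 and 249, then 390 and 279 CPM. Gclm was higher in replicate 1 of each group, and its log2 fold of 0.25 turned to -0.012 once Nanocapsule 1 was left out. That of Gclc, 0.20, was 0.022 without Nanocapsule 2 and 0.067 without Control 1. Gsr, glutathione reductase, was at 36.6 and 42.7 CPM in the controls and at 35.4 and 36.5 in the treated libraries, with a log2 fold of -0.14 ± 0.09 (SE) that was -0.025 without Control 2 and -0.25 without Control 1.

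The thioredoxin genes were level or slightly lower. Txnrd1, cytosolic thioredoxin reductase, had 128 and 153 CPM in the controls and 127 and 148 CPM after treatment. Prdx1, an abundant peroxiredoxin, was at 1561 and 1677 CPM in the controls and at 1481 and 1522 in the treated libraries, without overlap. Its log2 fold was -0.11 ± 0.10 (SE), and -0.057 without Control 2. The log2 fold of Txnrd1 was -0.035; leaving out Control 2 turned it to 0.095, and leaving out Nanocapsule 1 to 0.068.

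The remaining 3 genes were slightly higher in both treated libraries. Sqstm1, the autophagy receptor p62 that also binds KEAP1, had 646 and 643 CPM in the controls and 695 and 750 CPM after treatment, a log2 fold of 0.17 ± 0.09 (SE) that was 0.11 without Nanocapsule 2. G6pdx, the enzyme that opens the pentose phosphate pathway and supplies NADPH, rested at 27.6 and 30.1 CPM in the controls, with 31.2 and 33.1 CPM in the other group. Its log2 fold of 0.16 was 0.098 without Control 1. Nqo1, the quinone reductase often used as an NRF2 marker, had only 2.34 and 2.52 CPM, then 2.81 and 3.03 CPM. Nqo1 was scarce: at 8000 UMIs per cell, 1.30% to 2.20% of tumour-like cells of a library held a Nqo1 UMI. The adjusted p of the 10 genes ranged from 0.686 to 0.970 (edgeR).

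In the same edgeR comparison, 0 of the 9 genes listed as NRF2 regulators and 0 of the 20 listed as other NRF2 targets passed. Of the 12 genes of the ATF4 stress response list with a single row, 0 passed. An unadjusted p under 0.05 was reached by 2 of the 9, 3 of the 20 and 4 of the 12, against 7.19% of all genes. Nfe2l2, which encodes NRF2, had 60.6 and 59.6 CPM in the controls and 68.2 and 70.7 CPM after treatment (log2 fold 0.21 ± 0.06 SE, adjusted p = 0.686). Keap1 had a log2 fold of 0.02 ± 0.07 (SE) and Bach1 of 0.13 ± 0.11. The most abundant regulators, Rbx1 and Cul3 of the ubiquitin ligase, had -0.10 and -0.01. The ferritin chains Fth1 and Ftl1, which store iron and are NRF2 targets too, had log2 folds of 0.34 ± 0.13 and 0.23 ± 0.13, both without overlap between groups. Atf4 itself had 0.24 ± 0.09 and the serine synthesis gene Phgdh -0.14 ± 0.08. The edgeR adjusted p of each of these genes was above the threshold, at 0.687 for Fth1, 0.760 for Ftl1 and 0.687 for Atf4.

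Over all called cells together the picture was the same for the 10 genes. By edgeR, 0 of 10 passed (background 0.0% of 16937 genes), 2 had an unadjusted p under 0.05 (background 7.91%), and DESeq2 called 0 of 10 among 172 genes. Srxn1 had a log2 fold of 0.51 ± 0.18 (SE) and Slc7a11 of 0.54 ± 0.15. Hmox1 had 1.34 ± 0.09 (edgeR adjusted p = 0.376).

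The second comparison asked whether tumour-like cells that carried Hmox1 also carried more of the targets. Every tumour-like cell was thinned to 8000 UMIs, and cells with at least 1 Hmox1 UMI were set against cells with 0 within each library. The positive share was 34.4% and 27.3% in the controls and 42.1% and 45.2% in the treated libraries. Before thinning, a Hmox1 UMI was found in 71.6% and 86.6% of tumour-like cells of the controls and in 84.7% and 94.0% after treatment. Many cells counted as negative thus held Hmox1 at full depth, and the split sets lower against higher Hmox1, not absence against presence. T cell-like cells, which should lack Hmox1, had a UMI in 3 of 26 cells (11.5%, 95% exact binomial interval 2.45% to 30.2%) at the same thinned depth, and the part of free RNA in the positive tumour-like cells was not tested. The T cell-like class was not free of myeloid RNA: its 7 cells of Nanocapsule 1 held 119 UMIs of the macrophage gene Lyz2, and its other cells 0. Their median depth before thinning was 20821 UMIs, and library medians of the called cells ran from 38034 to 85275. In droplets of 10 to 100 UMIs, Hmox1 stood at 73.2 and 64.8 CPM in the controls and at 244 and 229 in the treated libraries.

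Of the 10 targets, 4 were higher in Hmox1-positive cells, in all 4 libraries: Slc7a11, Srxn1, Sqstm1 and Gclc. G6pdx was higher in all 4 as well without passing, and 19.5% of all genes were higher in all 4. The background was 12.4% of 11651 genes called higher and 10.4% called lower. None of the 10 was called lower with all libraries, but without Nanocapsule 1 Txnrd1 (-0.22, edgeR adjusted p = 0.00232) and Gsr (-0.29, adjusted p = 0.0175) were, and with no filter on low counts Txnrd1 was (-0.14, adjusted p = 0.0316). The median log2 fold of the 10 was 0.21, against 0.0029 over all genes, and it was 0.083 without Nanocapsule 2 and 0.11 without Nanocapsule 1. The other 6 did not pass.

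Slc7a11 had the largest difference of the 10. From negative to positive cells it went from 11.2 to 21.8 CPM in Control 1, from 8.15 to 24.7 in Control 2, from 9.78 to 33.2 in Nanocapsule 1 and from 14.6 to 33.6 in Nanocapsule 2. The positive cells were higher in each library, and the log2 fold was 1.29 ± 0.12 (SE, n = 4 libraries; edgeR adjusted p = 3.59e-11). By size of fold this placed it at position 35 among the 11651 genes tested.

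Srxn1 was at 9.16 and 12.7 CPM in the negative and positive cells of Control 1, at 11.9 and 24.3 in Control 2, at 10.2 and 27.0 in Nanocapsule 1 and at 14.4 and 28.3 in Nanocapsule 2. The log2 fold was 0.92 ± 0.13 (SE; edgeR adjusted p = 3.79e-07), with the smallest ratio, 1.39, in Control 1. Sqstm1 (chr11:50199366-50210827) ran from 584 to 778 CPM in Control 1, from 596 to 814 in Control 2, from 591 to 886 in Nanocapsule 1 and from 624 to 938 in Nanocapsule 2. Its log2 fold was smaller, 0.51 ± 0.03 (SE; edgeR adjusted p = 1.70e-16). The Sqstm1 ratio of positive to negative cells was larger in both treated libraries than in both controls. That difference between treatments, tested as an interaction below, did not pass (edgeR adjusted p = 0.705). Gclc (chr9:77754535-77794485) had ratios of positive to negative cells from 1.05 in Control 1 to 1.57 in Nanocapsule 2 and a log2 fold of 0.29 ± 0.08 (SE; edgeR adjusted p = 0.00570). The call of Gclc was lost by DESeq2 (adjusted p = 0.0995) and without Nanocapsule 2 (adjusted p = 0.105).

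The partner of Gclc did not pass. Gclm had a log2 fold of 0.04 ± 0.04 (SE; edgeR adjusted p = 0.483), with 302 and 296 CPM in the negative and positive cells of Control 1 and 257 and 301 in Nanocapsule 2. It passed when positive meant 2 or more Hmox1 UMIs (0.15, edgeR adjusted p = 0.0452). Prdx1 had 0.01 ± 0.03 (adjusted p = 0.810) and Nqo1 0.22 ± 0.34 (adjusted p = 0.702). G6pdx had 0.20 ± 0.08 (adjusted p = 0.0785), and it passed in cells thinned to 5000 UMIs (0.36, adjusted p = 0.0210). Txnrd1 had -0.12 ± 0.05 (adjusted p = 0.0878) and Gsr -0.19 ± 0.08 (adjusted p = 0.0840), each lower in positive cells in 3 of 4 libraries.

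**Figure D2:**
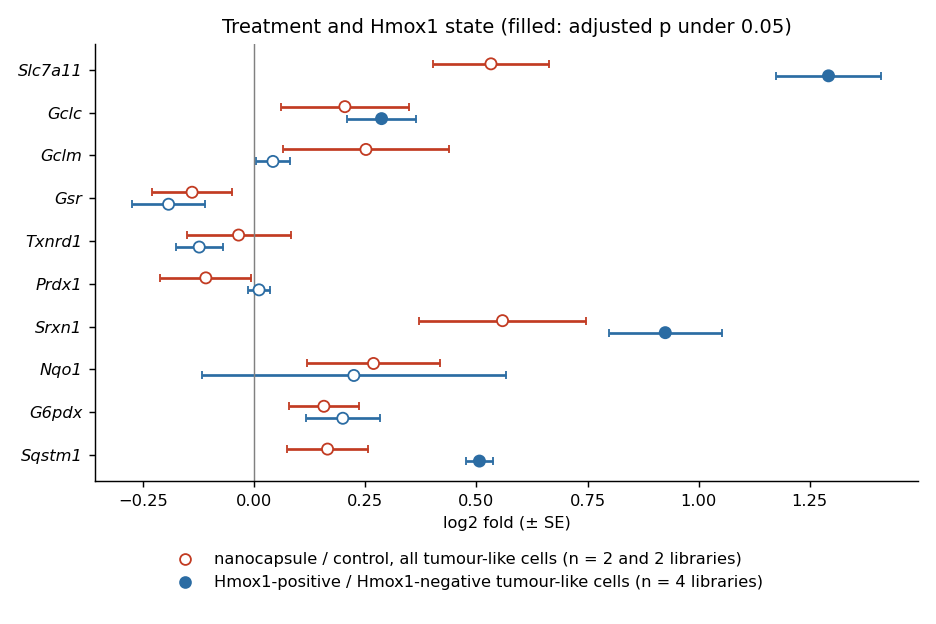
Log2 fold of the 10 NRF2 target genes with its SE, for nanocapsule over control in all tumour-like cells (red, 2 and 2 libraries) and for Hmox1-positive over Hmox1-negative tumour-like cells (blue, 4 libraries). Filled points passed an adjusted p under 0.05. The filled points are Slc7a11, Gclc, Srxn1 and Sqstm1 in the Hmox1 split, and no red point is filled.

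The genes of the ATF4 list, which cells turn on when amino acids run short or unfolded protein builds up, went with Hmox1 almost to a gene. Of 12 members, 11 were higher in Hmox1-positive cells and 0 lower, against 12.4% and 10.4% of all genes. The exception was Ddit4, with a log2 fold of 1.18 ± 0.24 (SE; edgeR adjusted p = 0.0543). Their median log2 fold was 0.98. Of the members that passed, the largest folds were those of Fgf21 (3.30 ± 0.30 SE), Nupr1 (1.62 ± 0.07), Trib3 (1.54 ± 0.10), Cebpb (1.43 ± 0.07), Chac1 (1.34 ± 0.08) and Asns (0.78 ± 0.05), and Atf4 had 0.62 ± 0.04. Slc7a11 is itself a known ATF4 target, and its 1.29 lay between Chac1 and Asns. This list, like the 10 targets, was chosen with earlier results of these data known, so its count is a description.

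Of the 20 other NRF2 targets, 5 were higher and 1 lower, against 12.4% and 10.4% of all genes. Me1, malic enzyme, had a log2 fold of 0.53 ± 0.06 (SE), Ugdh, which makes UDP-glucuronate, 0.50 ± 0.07, the glutathione-conjugate exporter Abcc1 0.31 ± 0.08, Ephx1 0.20 ± 0.07 and Ftl1 0.06 ± 0.02. Txn1, thioredoxin, was the lower one, at -0.08 ± 0.03. Fth1 had 0.23 ± 0.08 and did not pass (edgeR adjusted p = 0.160). Of the 9 regulators, 4 were higher, against the same 12.4% of all genes. They were the small MAF genes Maff (0.77 ± 0.13) and Mafg (0.33 ± 0.07), Nfe2l1 (0.25 ± 0.07) and Nfe2l2 (0.19 ± 0.06). Keap1 (-0.13 ± 0.08) and Bach1 (-0.01 ± 0.10) did not pass.

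The share of Hmox1-positive cells varied between tumour-like clusters. Hmox1-positive cells made up 80.7% of the cluster led by Fgf21 and 65.7% of the cluster led by Nppb, Pgf and Ndrg1, against 23.2% of the cluster led by the mitotic genes Fam83d and Pif1. When the Fgf21-led cluster and both clusters with Ndrg1 among their leading genes were left out, 2 of the 10 targets still passed. In all, 580 genes passed there, against 2648 with every cluster kept. Slc7a11 then had a log2 fold of 0.92 (edgeR adjusted p = 5.75e-07) and Sqstm1 of 0.28 (adjusted p = 5.54e-13). Srxn1 had 0.35 (adjusted p = 0.240) and Gclc -0.072 (adjusted p = 0.783). The genes of the ATF4 list were not counted again with these clusters left out.

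Summed markers of macrophages in the thinned cells were low on both sides of the split. They were 6.12 and 10.2 CPM in the negative and positive cells of Control 1, 4.50 and 6.71 in Control 2, 8.55 and 8.35 in Nanocapsule 1, and 11.1 and 7.68 in Nanocapsule 2. They were higher in the positive cells of both controls and lower in those of both treated libraries. With cells holding any immune marker UMI left out, Gclc, Slc7a11, Sqstm1 and Srxn1 all still passed.

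Whether the split itself differed between treatments was tested as an interaction, and 0 of the 10 genes passed by edgeR (background 0.0257% of genes called higher and 0.0% lower). An unadjusted p under 0.05 was reached by 5 of 10, against 5.06% of all genes, or 2.58% counting only genes with a larger ratio under nanocapsules. All 5 had a larger positive-to-negative ratio under nanocapsules: Sqstm1 (difference of log2 folds 0.16 ± 0.05 SE), Nqo1 (1.87 ± 0.66), Gclc (0.36 ± 0.15), Gclm (0.17 ± 0.07) and Srxn1 (0.53 ± 0.24). Their adjusted p started at 0.705, so no difference between treatments was shown.

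A finer division by Hmox1 UMIs showed where the targets differed. The divisions were chosen after the values were seen, so no test is given, and the intervals cover counting error only. Cells with 10 or more Hmox1 UMIs of 8000 numbered 1 and 4 in the controls, and 31 and 24 in the treated libraries. These 60 of 6233 tumour-like cells held 30.5% and 34.8% of the tumour-like Hmox1 UMIs of Nanocapsule 1 and 2, against 0.604% and 11.7% in Control 1 and 2. Without them, the log2 fold of Hmox1 between treatments was 0.83 in place of 1.24, a fall that the choice of cells by Hmox1 fixes. That of Srxn1 was 0.38 and that of Slc7a11 0.45.

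In the nanocapsule libraries, Slc7a11 and Sqstm1 were higher at each step of Hmox1. Slc7a11 was at 11.7 CPM in the 1298 cells with 0 Hmox1 UMIs, at 22.7 with 1, at 32.4 with 2, at 40.2 with 3 to 5, at 65.8 with 6 to 9 and at 77.3 with 10 or more. Sqstm1 ran from 603 through 727, 807, 1072 and 1194 to 1830 CPM over the same steps. The same held in the control libraries, with Slc7a11 from 10.5 to 56.2 CPM and Sqstm1 from 591 to 1488 between 0 and 6 to 9 Hmox1 UMIs. Pooled nanocapsule cells also had more Gclc at each step, from 38.1 CPM with 0 UMIs to 132 with 10 or more. That last group had 72.6 CPM in Nanocapsule 1 and 208 in Nanocapsule 2. In control cells Gclc was at 37.7 CPM with 0 UMIs, 31.5 with 2 and 62.5 with 6 to 9.

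Gclm, Txnrd1, Gsr and G6pdx showed no steady order over the lower steps and stood highest in the last group of nanocapsule cells. Gclm was at 341 CPM with 0 UMIs, at 343 with 3 to 5, at 424 with 6 to 9 and at 600 (95% Poisson interval 530 to 677) in the 55 cells with 10 or more. Over the same 4 groups Txnrd1 was at 126, 111, 151 and 202 (162 to 249) CPM, and in control cells it was lower with 3 to 5 UMIs than with 0, at 94.6 (78.1 to 114) against 133 (128 to 138). Gsr was at 34.8, 37.9, 26.3 and 79.5 (55.4 to 111) CPM, with 23.9 (17.2 to 32.3) at 2 UMIs, and G6pdx at 27.7, 37.1, 23.03 and 79.5 (55.4 to 111).

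Prdx1 was at 1466 CPM with 0, 1416 with 3 to 5 and 1884 with 10 or more Hmox1 UMIs, and Srxn1 at 11.9, 36.4 and 105 (76.5 to 139). Both treated libraries had more in the last group, with Gclm at 649 CPM in the 31 cells of Nanocapsule 1 and at 536 in the 24 cells of Nanocapsule 2, against 389 and 262 in their cells with 0 Hmox1 UMIs. Nqo1 rested on too few UMIs to read, at 4.55 CPM (0.55 to 16.4) in the last group. The ferritin chains were high in that group as well, Fth1 at 11890 against 6325 CPM and Ftl1 at 11630 against 7857.

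These 60 cells were spread over 10 of the 13 tumour-like clusters, with 16 in the Fgf21-led and 15 in the Nppb-led one. Their summed level of immune markers was 0.0 and 31.2 CPM in the controls and 4.03 and 5.21 CPM in the treated libraries, at or below that of the cells with 0 Hmox1 UMIs except in Control 2. Dct was lower in the treated ones, at 2600 against 4002 CPM.

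**Figure D3:**
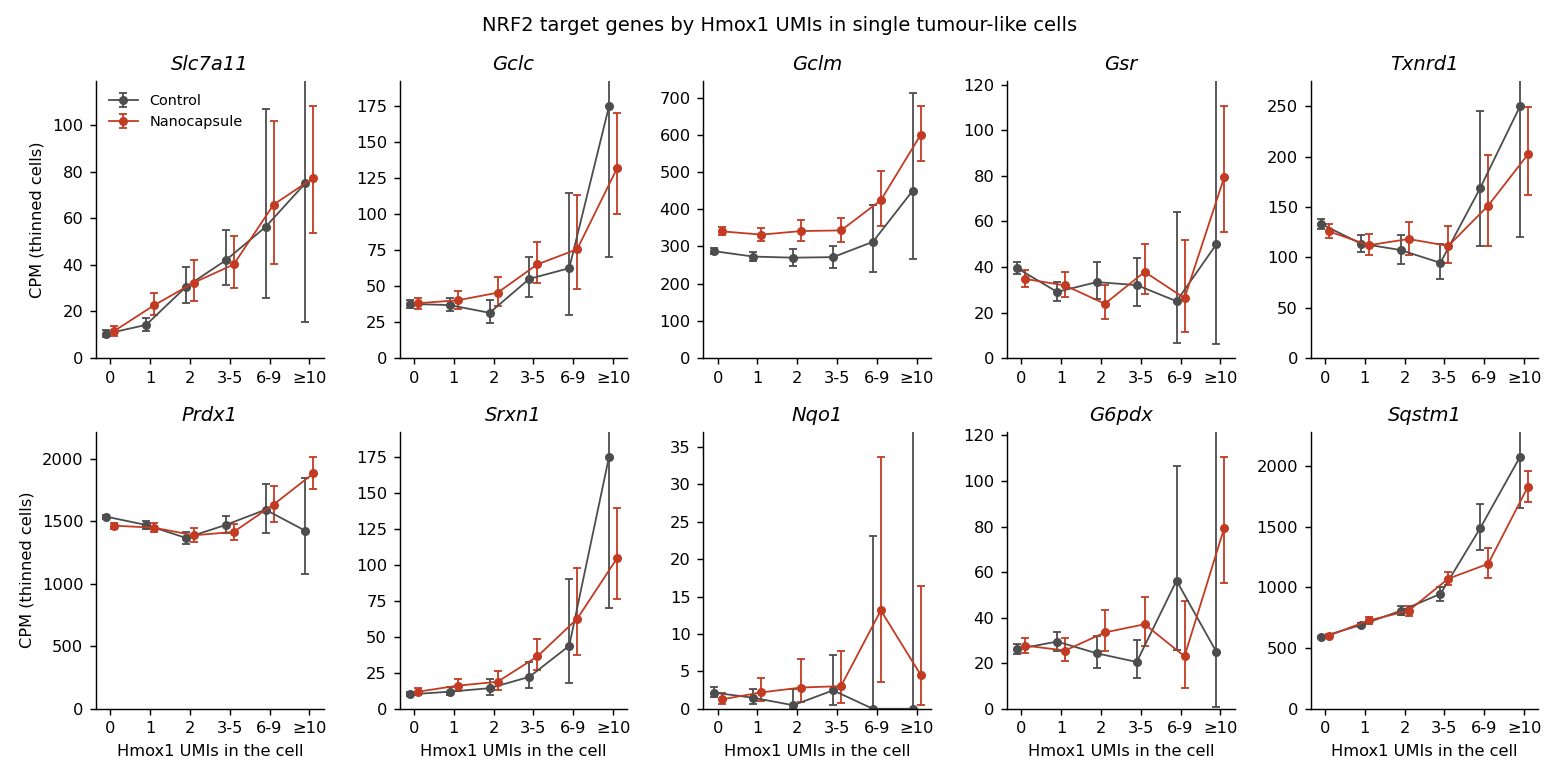
Level of each NRF2 target gene (CPM in cells thinned to 8000 UMIs, linear axis from 0) in tumour-like cells grouped by their Hmox1 UMIs, pooled over the 2 libraries of each group. Bars are 95% Poisson intervals for counting error, and some bars of the 5 control cells with 10 or more Hmox1 UMIs run past the axis. Slc7a11, Srxn1, Sqstm1 and Gclc are higher at each step in the nanocapsule cells. Gclm, Txnrd1 and Gsr have no steady order over the lower groups and are highest in the last.

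Among single tumour-like cells, correlations were weak and are given as a description. The mean over 4 libraries of the within-library Pearson correlation of log-transformed UMIs with Hmox1 was 0.28 for Sqstm1, 0.20 for Slc7a11, 0.16 for Srxn1, 0.09 for Gclc, 0.04 for Gclm and -0.03 for Txnrd1, over 6233 cells that share library and thinned depth. Sqstm1 held position 4 in this measure among 5341 genes with a mean of at least 0.2 UMI per cell, behind Ero1l, Trib3 and Nupr1. For Sqstm1 the correlation was 0.20 and 0.23 in Control 1 and 2 and 0.34 and 0.35 in Nanocapsule 1 and 2.

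Over the 45 pairs of targets the median correlation was 0.02, and 4 pairs exceeded 0.1: Gclm with Prdx1 (0.23), Slc7a11 with Sqstm1 (0.14), Srxn1 with Sqstm1 (0.12) and Gclc with Srxn1 (0.10). A value near 0 for a pair with a scarce gene does not show that the pair is not co-expressed. Slc7a11 and Hmox1 were found together in 359 cells, 1.48 times the 242 given by the product of their shares in each library. Srxn1 and Hmox1 were found together in 282 cells, 1.29 times the product. The 6 genes whose UMIs followed the sum of the 10 targets most closely were Ppia, Pfn1, Ubb, Eif5a, Txn1 and Psmb3, with mean correlations from 0.45 to 0.33. Prdx1 made up 54.6% of that sum, Sqstm1 24.7% and Gclm 11.2%.

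Across tumour-like clusters the 10 genes did not share 1 pattern. Slc7a11, Srxn1 and Sqstm1 were highest in the Fgf21-led cluster, at 91.7 ± 16.8, 46.9 ± 26.2 and 1452 ± 191 CPM (SD, n = 4 libraries). Hmox1 was highest there too, at 391 ± 203 CPM. The lowest of 4 libraries in that cluster had 66.6 CPM of Slc7a11, above the 27.2 ± 11.5 of the Nppb-led cluster.

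Gsr was highest in the cluster led by replication-phase histone genes, at 60.6 ± 2.13 CPM, against 26.1 ± 2.49 in the Nppb-led one. Txnrd1 was lowest in the Nppb-led cluster, at 82.1 ± 8.88 CPM, where Gclc was at 63.5 ± 13.8. A cluster led by Gm26917 and Neat1 stood apart, with Prdx1 at 616 ± 115 and Gclm at 118 ± 31.0 CPM, the lowest of the 13, and Gclc at 82.2 ± 38.8, the highest. The clusters were drawn from the same cells, so these levels are given without a test.

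**Figure D4:**
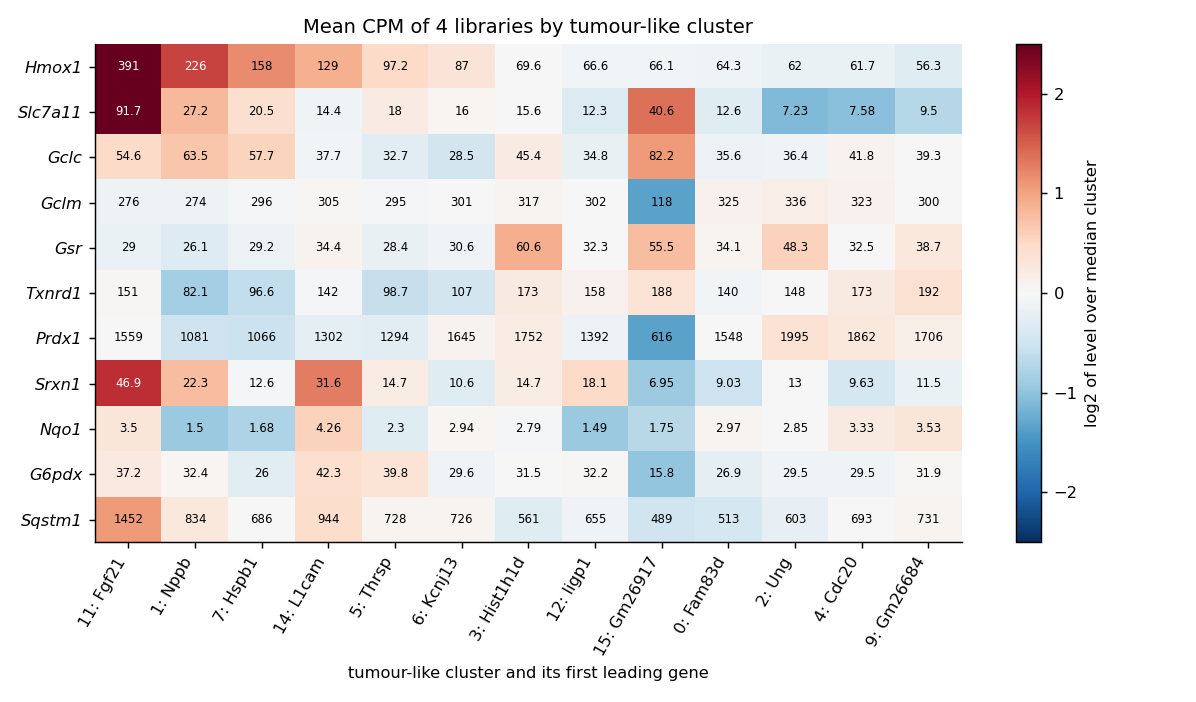
Mean CPM over 4 libraries (printed in each cell) of Hmox1 and the 10 NRF2 targets in the 13 tumour-like clusters, ordered from left by Hmox1 and labelled with their first leading gene. Colour is the log2 of the level over the median cluster of that gene. The Fgf21-led cluster is highest in Hmox1, Slc7a11, Srxn1 and Sqstm1, whereas Txnrd1 and Prdx1 are low in the Nppb-led and Hspb1-led clusters.

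Macrophage-like cells, 40, 41, 47 and 56 per library, had more Hmox1 than tumour-like cells, at 1121 ± 616 against 105 ± 49.5 CPM (SD, n = 4 libraries). G6pdx was also higher in them (66.1 ± 14.9 against 30.5 ± 2.93), as was Srxn1 (45.3 ± 26.9 against 14.98 ± 4.40), whereas Sqstm1 (318 ± 93.5 against 684 ± 58.0) and Gclm (165 ± 15.7 against 307 ± 53.9) were lower. For Hmox1, G6pdx, Sqstm1, Gclm and Srxn1 the ranges over the 4 libraries did not overlap between the classes. Among cells with at least 1500 UMIs, where macrophage-like Dct was at 878 ± 351 CPM, this held for the first 4. The ranges of Srxn1 then overlapped, at 20.1 to 49.5 against 10.2 to 20.4 CPM. Those of Gsr (92.8 to 111 against 34.8 to 44.4) and Slc7a11 (33.2 to 70.8 against 14.7 to 25.1) did not overlap there. The share of all genes without overlap between these classes was not counted, so the separation is not shown to be particular to the genes named. In T cell-like cells, 26 in all, Slc7a11 was at 0.61 ± 1.23 CPM.

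Within macrophage-like cells, 0 of 9 tested targets passed between treatments by edgeR (background 0.0% of 7654 genes). DESeq2 also called 0, and 3 had an unadjusted p under 0.05 (background 4.32%). Hmox1 had 947 and 329 CPM in the controls and 1675 and 1699 CPM after treatment. Slc7a11 alone of the 9 was higher in both treated libraries than in both controls, as were 16.7% of all genes. It had 26.0 and 22.4, then 41.7 and 51.5 CPM (log2 fold 0.97 ± 0.31 SE, edgeR adjusted p = 0.974).

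Srxn1 and Txnrd1 were lower in both treated libraries, as were 15.9% of all genes. Srxn1 had 85.4 and 42.4 CPM in the controls and 35.4 and 21.9 CPM after treatment, from 28 to 46 UMIs in each library. Without TMM factors its levels ran from 21.4 to 83.3 CPM. Among the 500 macrophage-like cells with at least 1500 UMIs, Srxn1 ran from 20.1 to 49.5 CPM between libraries. This range does not show whether Srxn1 was lower under nanocapsules there, and the edgeR fit on that set called 0 of 9 tested targets. Control 1 gave 142 of those cells, in place of 40. Txnrd1 had 173 and 151, then 121 and 81.7 CPM. The log2 folds were -1.16 ± 0.42 (SE; edgeR adjusted p = 0.994) and -0.68 ± 0.27 (adjusted p = 0.994). Dct, which marks tumour RNA in these cells, was at 93.4 ± 122 CPM (SD, n = 4 libraries), with 276 in Nanocapsule 1.

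The difference of the treatment effect between the classes was tested directly for all genes. It was not tested among cells with at least 1500 UMIs. Of the 10 targets, Srxn1 alone passed (background 0.203% of 15759 genes called lower and 0.102% higher): its log2 fold was 1.71 ± 0.43 (SE) lower in macrophage-like than in tumour-like cells (edgeR adjusted p = 0.0250). This call was lost without Control 1 (adjusted p = 1.0), where the difference was -0.97, without Nanocapsule 2 (adjusted p = 0.517), where it was -1.13, and with DESeq2 (adjusted p = 1.0).

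**Figure D5:**
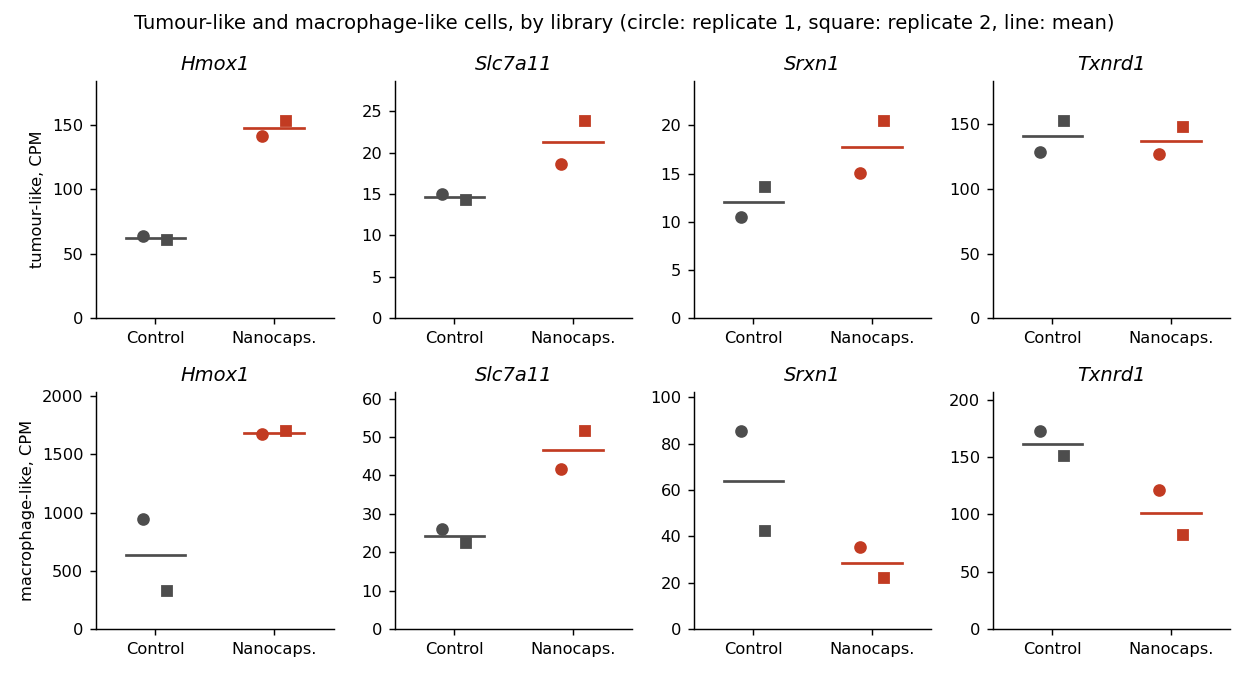
Level in CPM of Hmox1, Slc7a11, Srxn1 and Txnrd1 in tumour-like (top) and macrophage-like cells (bottom), 1 point per library on linear axes from 0, with the mean of each group as a line. Hmox1 and Slc7a11 are higher under nanocapsules in both classes, and Srxn1 is higher in tumour-like and lower in macrophage-like cells. The points are called cells, not the set with at least 1500 UMIs.

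In B cell-like cells, which were numerous enough only among cells with at least 1500 UMIs, 3 of the 10 targets could be tested and 0 passed by edgeR (background 0.0% of 1955 genes called higher and 0.153% lower); 0 had an unadjusted p under 0.05 (background 4.86%), and DESeq2 called 0. Gclm had a log2 fold of 0.31 ± 0.57 (SE), Prdx1 of -0.30 ± 0.33 and Sqstm1 of 0.33 ± 0.34. T cell-like and the remaining named classes had under 20 cells in some library and were not tested. The unnamed cells were not tested either.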

How the data were processed

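The deposited files hold raw UMI counts for all barcodes, in 1 matrix for each library. Per the labels' protocols, libraries used 10x Genomics single cell 3′ v2 chemistry. The submitters' processing notes name Cell Ranger 2.1.1 and mm10, the file headers Cell Ranger 4. The handling of reads shared with near-identical copies is not given in the sources used here, and Prdx1, Fth1, Ftl1 and Txn1, which have processed pseudogenes, are uncertain for that reason. The libraries held 140491491, 98943390, 108441772 and 105967866 UMIs (Control 1 and 2, Nanocapsule 1 and 2).

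Cells were barcodes above 1/10 of percentile 99 of UMIs over the top 3000, the minimum falling between 8763 and 16257 UMIs, with 200 or more genes and no more than 20% mitochondrial UMIs. A second set had a minimum of 1500 UMIs. Cells were clustered in scanpy 1.11.5 (2000 variable genes, 30 components, 15 neighbours, Leiden resolution 1.0) and clusters named from marker lists, with limits for a name set after the clusters were seen. No doublet caller was run. Sums of UMIs per library, or per library and Hmox1 state in cells thinned to 8000 UMIs, were fitted with edgeR 4.0.16 in R 4.3.3 (TMM, filterByExpr, robust quasi-likelihood test), with Benjamini-Hochberg adjustment over all genes of a fit. Levels per library in a treatment or Hmox1 comparison are TMM-normalised CPM, and levels by class, cluster, Hmox1 UMIs or free RNA are UMIs per 1000000 without TMM factors. The SE is the absolute log2 fold over the square root of F. Hmox1 made the split and was left out of that fit, which had the library as a block. DESeq2 1.42.0, RLE factors, no filter, other cell sets and each library left out were tried. Fits were tested on simulated data.

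The 10 genes and the gene lists were chosen with earlier results of these data known. The 10 genes and Hmox1 were always named. Of each list, up to 6 members past the threshold were named, or the 2 most abundant, plus Nfe2l2, Keap1, Bach1, Fth1, Ftl1 and Atf4. The 6 genes most like the sum of the 10 targets were named by correlation. Ero1l and Ddit4 were named after their values were seen. Ddit3, with 2 rows, was left out, so 12 of 13 ATF4 genes were used. Gene positions are GENCODE M21 on GRCm38.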

Additional observations from a re-analysis of the deposited data

Results flagged for a closer look

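The log2 fold of Srxn1 between treatments was 0.56 ± 0.19 (SE) in tumour-like and -1.16 ± 0.42 in macrophage-like cells. Neither passed on its own (edgeR adjusted p = 0.686 and 0.994). The test of the difference, macrophage-like minus tumour-like, gave -1.71 (edgeR adjusted p = 0.0250). The test was added after the data were seen and was not run on cells with at least 1500 UMIs. Among those, macrophage-like Srxn1 reached 49.5 CPM in its highest library, against 83.3 among called cells. Leaving out Control 1 or Nanocapsule 2, or using DESeq2 (adjusted p = 1.0), lost the call.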

How the results depend on the processing

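For nanocapsule against control in tumour-like cells, 146 of 150 values of the 10 genes under other settings kept their direction and stayed short of the threshold. The exceptions were Gclm (from -0.012 to 0.47 with 1 library left out), Txnrd1 (from -0.15 to 0.095) and Srxn1 with the replicate block. Labels do not pair the libraries by number, and same-numbered tumour-like sums deviated together with r = 0.38. With the replicate block, 1 target, Srxn1, passed in tumour-like cells (adjusted p = 0.0119, 228 genes called in place of 0), and 1 over all called cells. In macrophage-like and B cell-like cells the block called none of the 10. Leaving out 1 library each, the median log2 fold of the 10 ran from 0.11 to 0.21. In the Hmox1 split, 2 targets passed in place of 4 without the library block (782 genes called in place of 2648). Without the Fgf21-led and both Ndrg1-bearing clusters also 2 passed (580 genes called). With 2 or more Hmox1 UMIs as positive, the median log2 fold was 0.45 in place of 0.21, and leaving out 1 library each it ran from 0.08 to 0.33. Small folds of the split turned direction: Nqo1 (from -0.14 to 0.57 with 1 library left out, -0.30 at 5000 UMIs, -0.20 without immune UMIs), Gclc (-0.072 without those 3 clusters), Gclm (from -0.011 to 0.072 with 1 library left out), Prdx1 (from -0.024 to 0.019 with 1 left out, -0.0084 with no filter, -0.016 without immune UMIs, -0.0048 without cells of 10 or more Hmox1 UMIs) and Gsr (0.033 at 5000 UMIs). Without the last-named cells 6 of the 10 passed among 2602 genes called, with Txnrd1 (-0.16) and Gsr (-0.26) lower. For the difference between classes, 0 targets passed with DESeq2, and 0 to 2 when 1 library each was left out. The cause of these changes was not tested. The cluster sets and the 10-UMI limit were chosen after seeing the data. Low counts limit Nqo1 throughout.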
